A study of Mus musculus with 26 samples.

Results

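Pou5f1, Nanog, Sox2, Klf2, Klf4, Klf5, Esrrb, Tfcp2l1, Prdm14 and Zfp42 encode transcription factors and a chromatin regulator of the naive pluripotency network, and their promoters were followed here through ChIP-reChIP of mouse embryonic stem cells. A region of the deposited tables was assigned to a gene if it overlapped 1.5 kb either side of one of the gene's RefSeq start sites (mm10, the same assembly as GRCm38), and the region with the most overlap was kept for each gene and table. The genes are 10 of the 26180 with a RefSeq start site, and 79 of the 338442 regions in 12 tables were kept for them. E14 is an established mouse embryonic stem cell line, labelled WT and non-clonal, and was grown without feeders on gelatin in serum and LIF. It gave replicates 1 and 2 of the in-line totals (H3K4me3 and H3K27me3) and of the K4-K27 and K27-K4 reChIPs, from separate passages, and 1 IgG–IgG reChIP. From E14-derived cells in the same culture conditions, WT clones 57 and 58 and DPPA2/4 DKO clones 43 and 53, which lack both Dppa2 and Dppa4, were profiled in the same way, with 1 IgG–IgG reChIP from WT clone 57. Each clone is 1 cell line, so that n = 2 clones per genotype and the spread between clones includes everything in which clones differ. E14 replicate 1 was sequenced in batch A, replicate 2 in batch B and all clones in batch C, so that E14 cells and clones cannot be told apart from these batches and were not compared by a test.

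In K4-K27, chromatin was first precipitated with the H3K4me3 antibody, then eluted and precipitated again with the H3K27me3 antibody, and in K27-K4 the order was turned around. The in-line totals are chromatin set aside after the first precipitation. H3K4me3 marks promoters of genes that are active or poised, H3K27me3 is deposited by Polycomb repressive complex 2 at silent developmental genes, and chromatin with both marks is called bivalent. The H3K4me3 antibody may also detect H3K4me2. Pou5f1 (also called OCT4), Sox2 and Nanog form the core of the network that keeps embryonic stem cells undifferentiated. Klf2, Klf4 and Klf5 are Krüppel-like factors downstream of LIF and ERK inputs, Esrrb is an orphan nuclear receptor, Tfcp2l1 is a target of LIF and STAT3, Prdm14 represses differentiation cues and DNA methylation, and Zfp42 (REX1) is a marker of the naive state. DPPA2 and DPPA4 are small DNA-binding proteins of early embryos and embryonic stem cells that bind CpG-rich promoters.

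Levels are given as deposited, in log2 RPM (reads relative to library size) for each kb of a region, with no subtraction of IgG–IgG. All 4 clones are set against the IgG–IgG of WT clone 57, and both E14 replicates against that of replicate 1. Between 6741244 and 47903462 reads stood behind a library, with a median of 16875026 over 26 libraries. Depth and batch differ together between E14 replicates. At the E14 H3K4me3 regions of the 10 genes, the H3K27me3 value of a library rested on 10 to 316 reads, and low values in that ChIP are the least precise. Narrower regions can rest on fewer, such as 4 reads in DKO clone 43 at the WT K4-K27 region of Zfp42. All 10 genes, of which Pou5f1, Nanog, Sox2, Klf4, Esrrb and Zfp42 serve as markers of embryonic stem cells, had a listed H3K4me3 region in E14 cells and in both genotypes of clones. Of 16 regulators of other lineages, such as Gata6, Cdx2 and Pax6, 10 had an H3K27me3 region in E14 cells, against 12.1% of all genes. An H3K4me3 region by itself does not tell cell types apart. In E14 cells, 9 of these 16 regulators and 4 of 5 fibroblast markers also had one, against 53.2% of all genes. In WT clones 12 and 5 had one, against 60.2%, and in DKO clones 9 and 2, against 56.1%. Promoter marks of Dppa2 and Dppa4 do not show their deletion. Total H3K4me3 differed between DKO and WT clones by 0.37 log2 at Dppa2 (SE 0.69, adjusted p = 1, limma) and by 0.08 at Dppa4 (SE 0.76, adjusted p = 1).

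H3K4me3 regions lay over the start sites of all 10 genes in every cell set, while an H3K27me3 region was listed at Esrrb and Prdm14 only. Of all genes, 53.2% had an H3K4me3 region in E14 cells, 60.2% in WT clones and 56.1% in DKO clones. For H3K27me3, the table of E14 cells listed 1 of the 10 genes, Esrrb, against 12.1% of all genes. The table of WT clones listed 2, Esrrb and Prdm14, against 15.8%, and that of DKO clones listed 1, Prdm14, against 17.6%. Within 5 kb of a start site, the DKO table also held a region of Esrrb, which lay outside the narrower window.

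Listing in the reChIPs depended on the order of antibodies in the clones, over all genes as at these 10. In WT clones, K4-K27 regions were listed at all 10 genes, against 59.4% of all genes, but K27-K4 regions at only 4 (Klf4, Esrrb, Tfcp2l1 and Prdm14), against 33.7%. In DKO clones, K4-K27 regions were again listed at all 10 genes, against 57.8% of all genes, and K27-K4 regions at 3 (Klf4, Esrrb and Prdm14), against 32.1%. Thus 6 of the 10 genes in WT clones and 7 in DKO clones were listed in K4-K27 and not in K27-K4, against 28.5% and 28.9% of all genes. Pou5f1, Nanog, Sox2, Klf2, Klf5 and Zfp42 were of this kind in both genotypes, and Tfcp2l1 in DKO clones. All 10 genes have an H3K4me3 region. Of all genes with such a region, 94.7% were listed in K4-K27 and 49.3% in K27-K4 in WT clones. In DKO clones these shares were 95.9% and 47.2%.

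In E14 cells, K27-K4 regions were listed at all 10 genes, against 66.2% of all genes. K4-K27 regions were listed at 8, against 58.7%, and Nanog and Klf2 had none. Of genes with an H3K4me3 region in E14 cells, 98.7% were listed in K27-K4 and 91.2% in K4-K27. None of the 10 genes was listed in K4-K27 and not in K27-K4, against 0.199% of all genes. These E14 tables do not give independent calls: 21857 of the 24540 K4-K27 regions have the same bounds as a K27-K4 region. Whether they hold the peak calls that the study's methods describe is not stated in the sources used here.

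**Figure D1:**
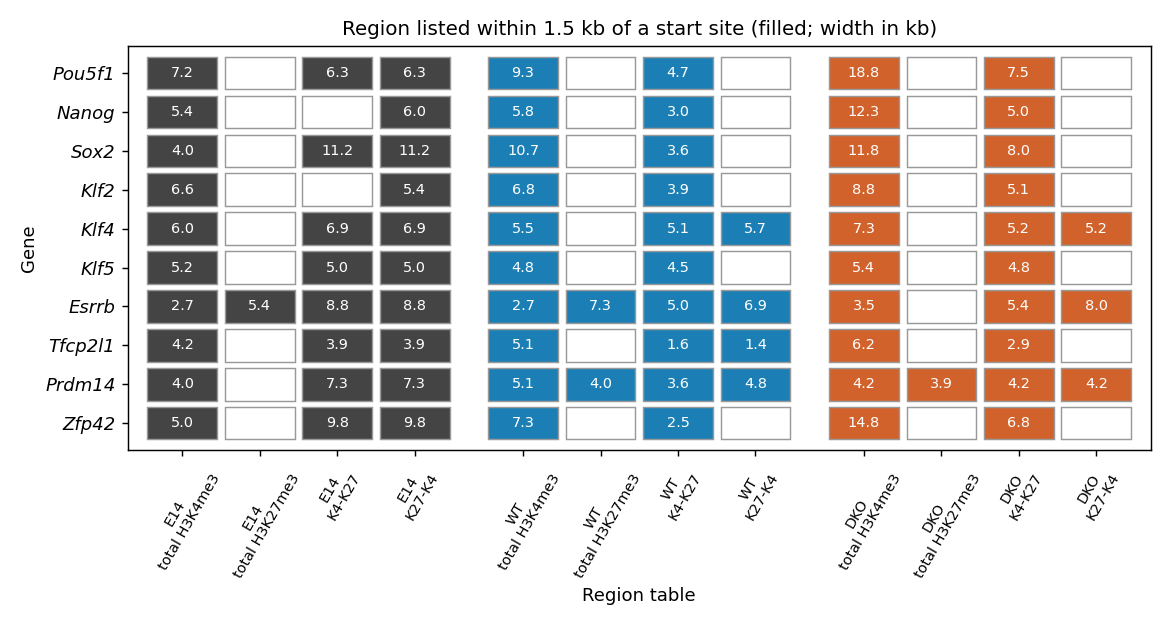
Regions listed within 1.5 kb of a start site, for the 10 genes (rows) and the 12 tables of E14 cells, WT clones and DKO clones (columns). A filled cell is a listed region with its width in kb, and an open cell is none, so that H3K4me3 is filled for every gene while H3K27me3 is filled for Esrrb and Prdm14 alone.

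The regions kept for these genes were wider than the median of all regions in their tables. In E14 cells their H3K4me3 regions had a median width of 5100 bp, from 2700 bp at Esrrb to 7200 bp at Pou5f1, beside 1950 bp over all regions of the table. In WT clones the median was 5700 bp, and in DKO clones 8100 bp, beside 1650 and 1800 bp over all regions. The broadest was the DKO region of Pou5f1, which covered 18750 bp at chr17:35500201-35518950, and the WT region there covered 9300 bp. Regions were listed separately for each genotype and these widths were not tested. The rule keeps the region with the most overlap at a start site, which favours wide regions, while all regions of a table include those elsewhere. Widths of regions kept by the same rule at other genes were not read. The DKO H3K4me3 libraries were also deeper, with 27181430 and 24224786 reads against 18918370 and 16697635 in WT clones.

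Sequences upstream of the start sites differed widely in CpG content. RefSeq (GRCm38.p6) promoters of 300 bases, from 250 before to 50 after a start site, were found for 8 of the 10 genes, with 11 entries, and Klf5 and Prdm14 had no entry. Klf4 held 40 CG, which 3.91% of 32851 promoters reach or exceed, followed by Klf2 with 32, Sox2 with 27 and Tfcp2l1 with 21. Pou5f1 held 11 and 6 CG at its start sites, Zfp42 held 11 and Esrrb held 7, equal to the median of 7 over all promoters. Nanog was lowest of the 8 genes with 4 CG, and 38.0% of all promoters have as many or fewer. Printed here are the 250 bases upstream of Klf4, which has the most CG and a listed reChIP region in every table, of Esrrb, which carried the highest H3K27me3, and of Nanog, which had the fewest CG and no K4-K27 region in E14 cells. The Klf4 sequence lies at chr4:55532476-55532725 on the minus strand, that of Esrrb at chr12:86421394-86421643 on the plus strand and that of Nanog at chr6:122707315-122707564 on the plus strand. They are written 5′ to 3′ and capitals mark CG.
Klf4: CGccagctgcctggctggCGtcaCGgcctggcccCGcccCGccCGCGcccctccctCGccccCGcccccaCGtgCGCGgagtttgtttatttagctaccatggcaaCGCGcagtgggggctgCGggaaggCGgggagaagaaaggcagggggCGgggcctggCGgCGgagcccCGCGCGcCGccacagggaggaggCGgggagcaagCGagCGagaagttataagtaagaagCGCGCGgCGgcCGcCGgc
Esrrb: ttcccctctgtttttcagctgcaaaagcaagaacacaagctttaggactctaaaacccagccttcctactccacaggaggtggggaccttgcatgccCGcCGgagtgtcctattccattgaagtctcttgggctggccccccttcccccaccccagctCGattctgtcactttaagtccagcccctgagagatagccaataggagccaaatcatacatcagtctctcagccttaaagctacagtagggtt
Nanog: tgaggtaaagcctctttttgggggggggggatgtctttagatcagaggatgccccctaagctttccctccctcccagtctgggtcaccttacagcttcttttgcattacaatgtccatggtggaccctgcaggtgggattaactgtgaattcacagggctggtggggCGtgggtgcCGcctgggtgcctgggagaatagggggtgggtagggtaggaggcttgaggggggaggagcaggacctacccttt

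Capitals cluster along the Klf4 sequence and are sparse in the others. The 250 bases of Klf4 held 32 CG, those of Esrrb 3 and those of Nanog 2. Short motifs were searched on both strands of the 300 bases. The GC box GGGCGG was found in 5 of the 11 entries (Pou5f1, Sox2, Klf2, Klf4 and Zfp42) and in 35.7% of all promoters. The TATA box TATAAA was found at Tfcp2l1 alone (13.6% of all promoters), the octamer ATGCAAAT at Zfp42 (1.74%), the Sox motif ACAAAG at Sox2 (18.7%) and the E box CACGTG at Klf4 (7.15%). CCAAT was found in 5 entries and in 37.4% of all promoters.

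The level of each mark was read at the E14 H3K4me3 regions, which all 10 genes have, so that the same bases are compared between ChIPs and between cells. Pou5f1 (chr17:35503051-35510250) had total H3K4me3 of 1.33 and 1.83 in E14 replicates 1 and 2, 3.70 and 2.38 in WT clones 57 and 58, and 3.54 and 3.03 in DKO clones 43 and 53. Its total H3K27me3 was -1.61 and -2.09 in E14 cells, -2.30 and -2.23 in WT clones and -2.87 and -2.20 in DKO clones. IgG–IgG stood at 0.10 in E14 cells and 0.64 in WT clone 57. At this master regulator, every H3K4me3 library was thus above IgG–IgG and every H3K27me3 library below it.

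Sox2 (chr3:34648051-34652100), the partner of OCT4 on DNA, had the highest total H3K4me3 of the 10 genes in both WT clones, with 4.09 and 2.66, after 1.12 and 1.79 in E14 cells and beside 3.60 and 3.07 in DKO clones. In the WT clones these are the 99.7th and 99.8th percentiles of the 21970 regions. Its H3K27me3 was -2.05 and -1.76 in E14 cells, -2.32 and -2.17 in WT clones and -2.75 and -1.85 in DKO clones, against IgG–IgG of 0.23 and 1.29. Nanog (chr6:122705551-122710950), the homeodomain factor that fluctuates between cells in serum, had H3K4me3 of 1.10 and 1.68 in E14 cells, 2.67 and 1.42 in WT clones and 2.62 and 2.05 in DKO clones. Nanog thus lay lower than Sox2 and Pou5f1 in every clone, and its H3K27me3, between -2.63 and -1.44, lay under IgG–IgG (-0.67 in E14 cells and -0.29 in WT clone 57) in every library.

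Among the Krüppel-like factors, Klf4 (chr4:55528651-55534650) differed from Klf2 and Klf5 in H3K27me3. The study's qPCR primers place Klf4 among its controls with H3K4me3 only. Klf4 had H3K27me3 of -0.96 and -1.49 in E14 cells, 0.48 and 0.12 in WT clones and -1.22 and -0.68 in DKO clones, with IgG–IgG at -0.37 and 0.10. Only the WT clones of Klf4 exceeded their IgG–IgG. Klf2 (chr8:72317251-72323850) had H3K27me3 between -2.46 and -0.92 over the 6 libraries and Klf5 (chr14:99297451-99302700) between -2.42 and -1.49, all below IgG–IgG. H3K4me3 was high at all 3 genes, with 3.46 and 2.09 in the WT clones for Klf4, 3.52 and 2.10 for Klf2 and 2.93 and 1.79 for Klf5.

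Esrrb and Prdm14 were the genes with both marks. At Esrrb (chr12:86421151-86423850, over the second of its start sites) H3K27me3 was 0.90 and 0.65 in E14 cells, 2.41 and 2.01 in WT clones and 1.85 and 1.79 in DKO clones, with IgG–IgG at -0.87 and 0.58. Its H3K4me3 was 1.13 and 1.03 in E14 cells, 2.33 and 1.63 in WT clones and 2.49 and 2.05 in DKO clones. At Prdm14 (chr1:13123951-13128000) H3K27me3 was -0.11 and -0.12 in E14 cells, 1.46 and 0.77 in WT clones and 1.03 and 0.67 in DKO clones, with IgG–IgG at -0.70 and 0.25. Both genes were above IgG–IgG in H3K27me3 in every library. Esrrb ranked at or above the 96.0th percentile of the 21970 regions for H3K27me3 in every library, and Prdm14 between the 78.0th and 90.5th.

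Tfcp2l1 (chr1:118627351-118631550) and Zfp42 (chr8:43302301-43307250) followed the core factors. H3K4me3 at Tfcp2l1 was 0.97 and 1.54 in E14 cells, 2.88 and 1.46 in WT clones and 2.71 and 2.24 in DKO clones, and at Zfp42 0.83 and 1.76, 3.23 and 1.79, and 3.03 and 2.75. H3K27me3 was below IgG–IgG in every library at Zfp42, from -3.18 to -1.84. At Tfcp2l1 it lay between -2.18 and -0.95, and E14 replicate 1 (-1.11) was level with IgG–IgG (-1.12). Over the 10 genes, 10 were above IgG–IgG for H3K4me3 in each library, where 90.3% to 100% of all 21970 regions were, and 2 or 3 for H3K27me3, where 31.1% to 40.7% of all regions were.

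**Figure D2:**
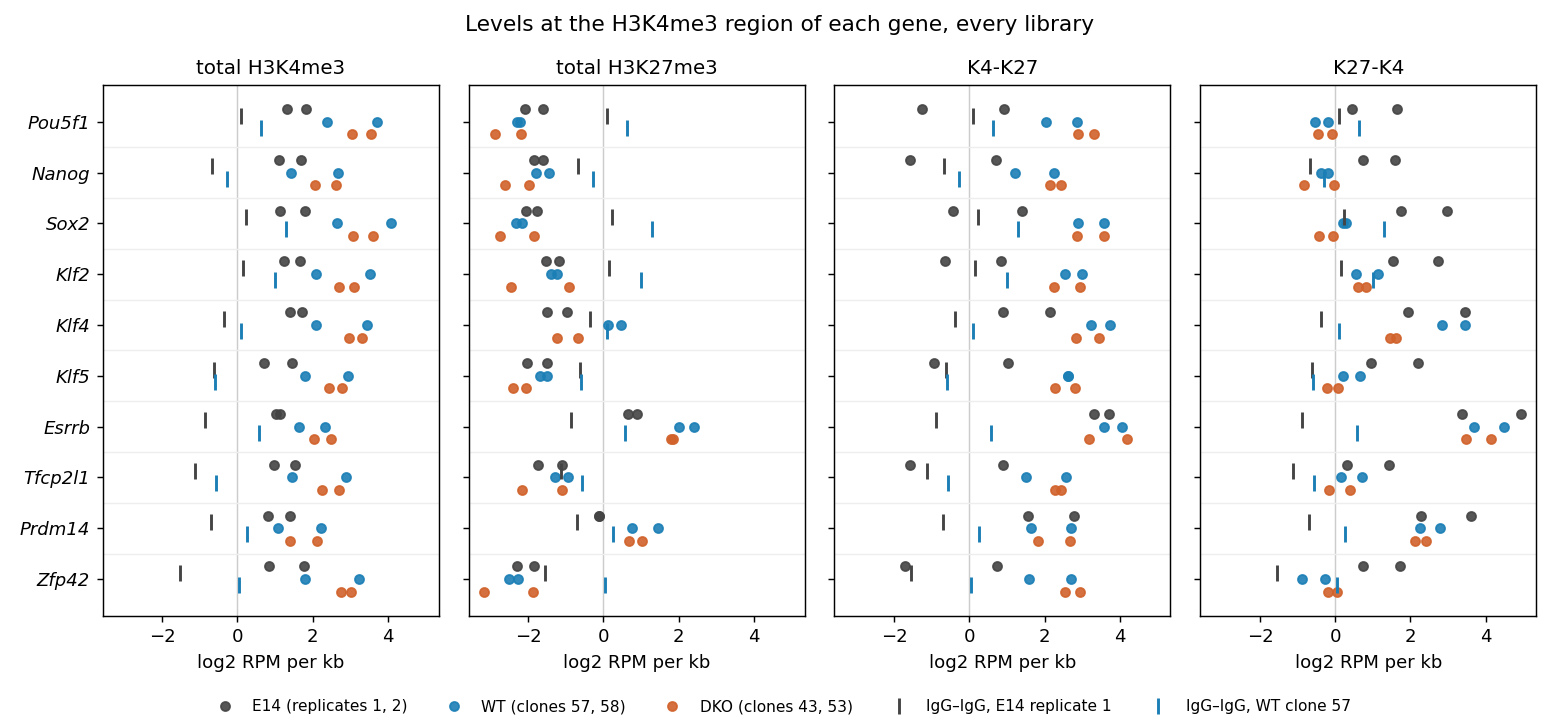
Level of each ChIP (log2 RPM per kb) at the E14 H3K4me3 region of each gene, with 1 point per library of E14 cells, WT clones and DKO clones and a tick for IgG–IgG. Esrrb stands out with H3K27me3 of 0.65 to 2.41, while Zfp42 and Pou5f1 lie under IgG–IgG, and WT clone 57 has the highest H3K4me3 of the clones at Sox2 with 4.09.

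The balance of the 2 in-line totals was tested to ask at which of these promoters H3K4me3 exceeds H3K27me3. The regions tested are those of the H3K4me3 tables, listed for H3K4me3 in the same cells, so that a balance on the H3K4me3 side is largely fixed by the choice of regions, and the counts are to be read only against the share of all regions. In E14 cells, 9 of the 10 genes had called higher H3K4me3 (log2 difference over 1 and adjusted p under 0.05, limma with Benjamini-Hochberg adjustment over 21970 regions), against 81.4% of all regions. Their differences ranged from 1.23 at Prdm14 (SE 0.32, adjusted p = 0.00017) to 3.43 at Pou5f1 (SE 0.45, adjusted p = 7.3e-13). Zfp42 followed with 3.37, Sox2 with 3.36, Nanog with 3.11 and Klf5 with 2.84. Esrrb was the exception, with a difference of 0.30 (SE 0.23, adjusted p = 0.204). The median of the 10 genes was 2.82, beside 2.25 over all regions.

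Since each library has its own scale, the zero of this balance is set by the scaling. With each library centred on its own median, the median over all regions moved from 2.25 to -0.05, 5 of the 10 genes were called in either direction, against 36.2% of all regions, and Esrrb (-1.99, adjusted p = 0.000526) and Prdm14 (-1.07, adjusted p = 0.00704) turned to the H3K27me3 side. Pou5f1, Sox2 and Zfp42 remained called on the H3K4me3 side, with 1.13, 1.07 and 1.07. Centring shifts every region by the same amount, so that the order of the genes is the same on both scales by construction.

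In WT clones, 8 of 10 genes had called higher H3K4me3 than H3K27me3 at the regions of their own H3K4me3 table, which favour that direction in the same way, against 65.4% of 31935 regions. Pou5f1 again led with 5.05 (SE 0.78, adjusted p = 2.26e-09), followed by Zfp42 with 4.83 and Sox2 with 4.56, and Klf4 was lowest of those called with 2.50 (SE 0.83, adjusted p = 0.00533). Prdm14 differed by 0.61 (SE 0.81, adjusted p = 0.509) and Esrrb by -0.21 (SE 0.86, adjusted p = 0.84). The median of the genes was 3.87, beside 2.35 over all regions. Without the H3K27me3 library of clone 57, 3 genes were called (Pou5f1, Sox2 and Zfp42), against 25.9% of all regions. The spread then comes from the H3K4me3 libraries alone, and the differences of the 8 genes ran from 2.68 at Klf4 to 4.89 at Pou5f1. After centring, Prdm14 turned to -1.84 and Esrrb stood at -2.66, and the median over all regions moved to -0.10.

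The reChIPs were then compared at the same regions. In E14 cells, K27-K4 was above IgG–IgG at all 10 genes in both replicates, and K4-K27 at all 10 in replicate 2 but at 3 in replicate 1. Of all regions, 91.2% and 94.7% were above it in K27-K4 of replicates 1 and 2, and 55.9% and 95.0% in K4-K27. Esrrb had the highest values, with K4-K27 of 3.31 and 3.71 and K27-K4 of 3.36 and 4.94 in replicates 1 and 2. Prdm14 followed with K4-K27 of 1.55 and 2.79 and K27-K4 of 2.28 and 3.61, and Klf4 with K4-K27 of 0.91 and 2.13 and K27-K4 of 1.95 and 3.44. These are the 3 genes above IgG–IgG in K4-K27 of replicate 1, and they are also the 3 whose K27-K4 regions are listed in both genotypes of clones.

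At the other genes of E14 cells, K4-K27 was low in replicate 1 and higher in replicate 2. Zfp42 had -1.71 and 0.73, Nanog -1.58 and 0.71, Tfcp2l1 -1.58 and 0.91, and Pou5f1 -1.25 and 0.91. Their K27-K4 values were 0.75 and 1.73 at Zfp42, 0.74 and 1.59 at Nanog, 0.31 and 1.42 at Tfcp2l1, and 0.44 and 1.65 at Pou5f1. Replicate 2 was thus higher in both reChIPs at each of these genes. Sox2 was higher in K27-K4 than this group, with 1.75 and 2.97.

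In the fit without a replicate block, the order of antibodies gave no called difference at these genes in E14 cells. K27-K4 exceeded K4-K27 at all 10 genes within each replicate and batch, with a median of 1.89 in replicate 1 and 1.08 in replicate 2. At the 8 genes in regions shared by both tables, the difference ranged from 0.54 at Esrrb (SE 0.94) to 1.93 at Zfp42 (SE 1.13), with an adjusted p of 0.829 for each (limma). None of the 8 was called, with 0.0% of all 21857 regions, where 55 had an unadjusted p under 0.05. At the H3K4me3 regions the 10 genes had a median difference of 1.37, beside 0.90 over all regions, with an adjusted p of 0.75 and again no call (0.0% of all regions, with 8 higher and 11 lower at an unadjusted p under 0.05). With the replicate as a block, 2 of the 8 genes (Sox2 and Klf5) were called, against 6.97% of all regions, and 4 of the 10 (Sox2, Klf2, Klf4 and Klf5), against 14.8%. Centred on the library medians, Esrrb turned to -0.14.

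In WT clones the order ran the other way at most of the genes. K4-K27 at Sox2 was 3.59 and 2.89 in clones 57 and 58, and K27-K4 was 0.21 and 0.28, the latter below the IgG–IgG value of 1.29. At Pou5f1, K4-K27 was 2.87 and 2.03 and K27-K4 -0.53 and -0.20, and at Zfp42 these were 2.70 and 1.58, and -0.27 and -0.88. The orders did not overlap at these 3 genes, with K27-K4 the lower, as at 57.5% of all regions, and K27-K4 was under IgG–IgG at each. At Esrrb, by contrast, K4-K27 was 4.06 and 3.59 and K27-K4 4.49 and 3.69, and at Prdm14 K4-K27 was 2.70 and 1.64 and K27-K4 2.79 and 2.25. At both, the orders overlapped and every value was above IgG–IgG.

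By limma at the H3K4me3 regions, K27-K4 was called lower than K4-K27 at 7 of the 10 genes in WT clones, against 37.4% of all regions. The differences were -2.99 at Sox2 (SE 0.56, adjusted p = 1.65e-06), -2.82 at Pou5f1 (SE 0.58, adjusted p = 1.2e-05) and -2.71 at Zfp42 (SE 0.61, adjusted p = 6.2e-05). Klf5 (-2.19), Nanog (-2.02), Klf2 (-1.93) and Tfcp2l1 (-1.59, adjusted p = 0.0149) were also called. Klf4 (-0.36, SE 0.65, adjusted p = 0.743), Esrrb (0.26, SE 0.69, adjusted p = 0.84) and Prdm14 (0.35, SE 0.59, adjusted p = 0.723) were not. The median of the genes was -1.97, beside -1.22 over all regions. Without the K27-K4 library of clone 57, 4 genes were called, against 20.2% of all regions, and without that of clone 58, 3 (Sox2, Pou5f1 and Zfp42), against 20.6%. The spread in these fits comes from K4-K27 alone, and the differences of the 7 genes stayed between -3.02 and -1.87 without clone 57 and between -3.03 and -1.30 without clone 58.

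In DKO clones, K27-K4 was called lower at 8 of the 10 genes, against 46.5% of all regions, among them Sox2 (-3.48, SE 0.46, adjusted p = 6.84e-12), Pou5f1 (-3.37), Zfp42 (-2.83) and Nanog (-2.71). Klf4 was among them with -1.61 (SE 0.46, adjusted p = 0.00142), and was no longer called without the K27-K4 library of clone 43 (-1.52, adjusted p = 0.214) or of clone 53 (-1.70, adjusted p = 0.135), where 1 library is left and the spread comes from K4-K27 alone. Esrrb had a difference of 0.12 (SE 0.53, adjusted p = 0.896) and Prdm14 of 0.00 (SE 0.46, adjusted p = 0.997). The median of the genes was -2.43, beside -1.14 over all regions. The WT and DKO comparisons rest on different libraries, and the change of the order between genotypes was not tested.

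These directions are relative to library scale. Centring each library moved the median over all regions from -1.22 to 0.51 in WT clones and from -1.14 to 0.65 in DKO clones. On that scale Sox2 (-1.26, adjusted p = 0.00841) and Pou5f1 (-1.08, adjusted p = 0.0255) were still lower in K27-K4 in WT clones, while Tfcp2l1 turned to 0.15 and Klf4 to 1.37 (adjusted p = 0.0285). Klf4, Esrrb (1.99, adjusted p = 0.0082, limma) and Prdm14 (2.08, adjusted p = 0.00161) were then called higher in K27-K4. Of all regions, too, more were then called higher than lower in WT clones, with counts given in the closing section. In DKO clones 5 of the 10 genes were then called in either direction, against 44.1% of all regions. Klf4 turned to 0.18, Esrrb (1.91) and Prdm14 (1.80) were called higher, and Sox2, Pou5f1 and Zfp42 stayed called lower, with -1.68, -1.57 and -1.04.

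**Figure D3:**
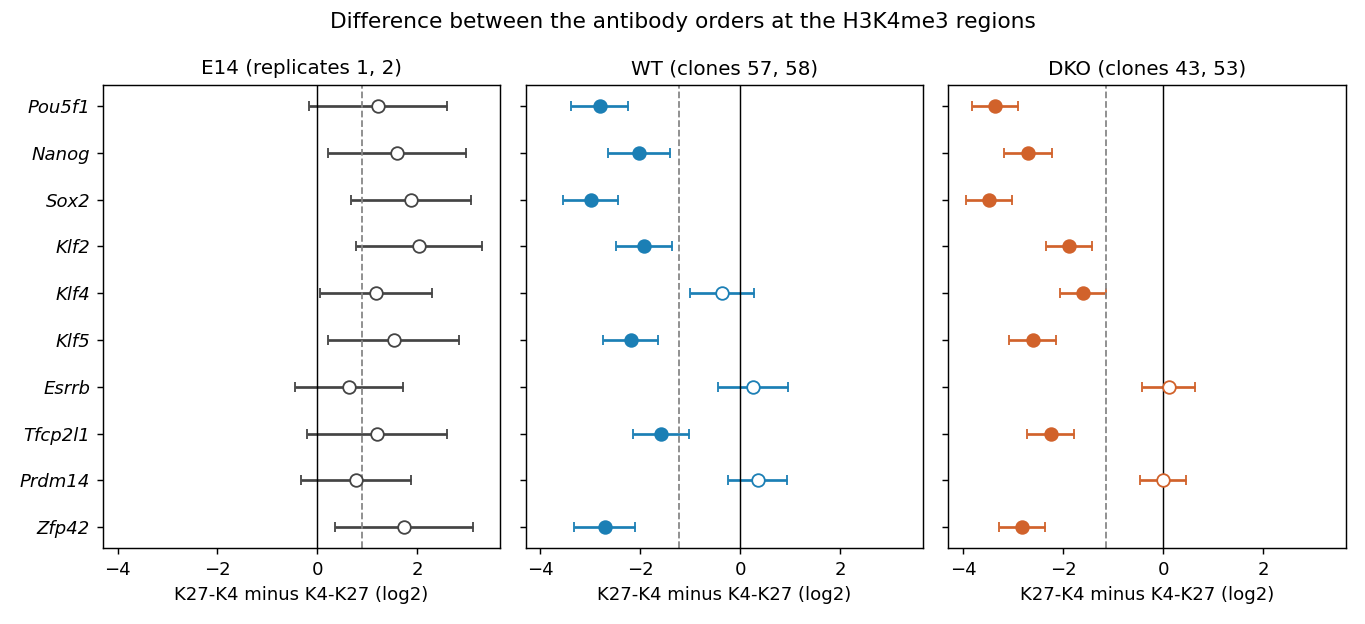
K27-K4 minus K4-K27 (log2) at the E14 H3K4me3 region of each gene in E14 cells, WT clones and DKO clones. Points are differences of group means with SE bars, filled where called, and the dashed line is the median over all regions: most genes lie below -1.22 in WT clones, while Esrrb (0.26) and Prdm14 (0.35) lie above 0.

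Deletion of Dppa2 and Dppa4 was not followed by a called change of H3K4me3 at any of the 10 genes. In total H3K4me3, 0 of 10 were called at the regions of the WT and DKO tables, against 2.72% of 64063 regions in either direction, and differences ranged from -0.01 at Sox2 (SE 0.85) to 0.41 at Zfp42 (SE 0.82), with adjusted p of 1 for each (limma). The median of the 10 genes was 0.27, beside 0.13 over all regions. The WT clones were spread widely: clone 57 exceeded clone 58 at all 10 genes, by a median of 1.34 log2, and at the E14 H3K4me3 regions the values of DKO clones overlapped those of WT clones at every gene, where 21.3% of all regions did not overlap. There 0 of 10 were called as well, against 2.08%. None had an unadjusted p under 0.05 in either set.

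The K4-K27 reChIP likewise had 0 of 10 genes called, against 1.19% of 53855 regions. Zfp42 had the largest rise in value, 0.82 (SE 0.60, adjusted p = 0.568), and Klf4 the largest fall in value, -0.36 (SE 0.65, adjusted p = 0.935), with a median of 0.04, beside -0.01 over all regions. At the H3K4me3 regions, Pou5f1 was 2.87 and 2.03 in WT clones and 3.30 and 2.88 in DKO clones, the only gene of the 10 whose genotypes did not overlap, against 30.0% of all regions, and its difference of 0.64 (SE 0.61, adjusted p = 1) was not called. There 0 of 10 were called, against 2.62% of regions. Differences under 1 log2 are not called by the rule used, whatever their error.

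In K27-K4, Klf4 had the largest difference in value between the genotypes, lower in DKO clones, and it was not called at its own region. At its WT K27-K4 region (chr4:55529251-55534950), K27-K4 was 3.51 and 2.91 in WT clones 57 and 58, from 1032 and 730 reads, and 1.50 and 1.70 in DKO clones 43 and 53, from 376 and 318 reads. The genotypes did not overlap, and all 4 values were above the IgG–IgG value of -0.03. The difference was -1.61 (SE 0.48), and its adjusted p of 0.0505 (limma, over 59260 regions) lay just past the threshold. Over the alternatives the adjusted p ranged from 5.95e-06 to 0.682. It was 0.0253 with regions of the WT table only, where 4.56% of regions were called, and 0.299 with those of the DKO table only. Without DKO clone 43 the difference was -1.51 (adjusted p = 0.682) and without DKO clone 53 -1.71 (adjusted p = 0.626), fits in which the spread comes from the WT clones alone. Without WT clone 57 it was -1.31 (adjusted p = 0.0122) and without WT clone 58 -1.91 (adjusted p = 5.95e-06), with the spread from the DKO clones alone.

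At the E14 H3K4me3 region, a set of regions chosen after seeing the data, Klf4 had K27-K4 of 3.44 and 2.83 in WT clones and 1.44 and 1.63 in DKO clones, and was called (-1.60, SE 0.48, adjusted p = 0.0177). After centring the difference was -1.62 (adjusted p = 0.0396), and without the library of DKO clone 43 or 53 the difference was -1.51 or -1.69 and no longer called (adjusted p = 0.837 and 0.671), with the spread again from the WT clones alone. Total H3K27me3 at Klf4 moved the same way, with 0.48 and 0.12 in WT clones and -1.22 and -0.68 in DKO clones, a difference of -1.25 (SE 0.43) that was not called (adjusted p = 0.136, limma). In K4-K27, by contrast, Klf4 was 3.74 and 3.25 in WT clones and 3.46 and 2.83 in DKO clones, and the genotypes overlapped (-0.35, SE 0.64, adjusted p = 1). H3K4me3 at Klf4 was 3.46 and 2.09 in WT clones and 3.31 and 2.97 in DKO clones, which also overlapped.

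At the H3K4me3 regions, 8 of the 10 differences in K27-K4 were below 0, with a median of -0.26, beside 0.08 over all regions. Sox2 (0.21 and 0.28 in WT clones, -0.43 and -0.07 in DKO clones) and Klf5 (0.65 and 0.22, and -0.21 and 0.06) were also lower in value in both DKO clones without overlap, with differences of -0.50 (SE 0.45, adjusted p = 0.741) and -0.51 (SE 0.43, adjusted p = 0.712, limma). Zfp42 was the gene with both DKO values above the WT values (-0.27 and -0.88 in WT clones, -0.19 and 0.04 in DKO clones). At the other 6 genes the genotypes overlapped. Thus 4 of the 10 genes did not overlap in either direction, against 41.2% of all regions.

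No other gene of the 10 was called in K27-K4. At the WT and DKO regions 0 of the 4 genes with a region were called, against 2.26% of all regions, and at the H3K4me3 regions 1 of 10, Klf4, against 5.77%. Esrrb had K27-K4 of 4.49 and 3.69 in WT clones and 4.15 and 3.48 in DKO clones, and Prdm14 of 2.79 and 2.25, and 2.41 and 2.11. Both genes kept values far above IgG–IgG in each clone, with differences at their own regions of -0.24 (SE 0.52, adjusted p = 0.81) and -0.23 (SE 0.46, adjusted p = 0.793). The narrow WT region of Tfcp2l1 (chr1:118627501-118628850), which has no counterpart in the DKO table, had 2.24 and 1.31 in WT clones and 1.68 and 0.83 in DKO clones, so that listing in only 1 genotype went with overlapping values (-0.52, SE 0.43, adjusted p = 0.496).

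H3K27me3 was tested at Esrrb and Prdm14, and 0 of these 2 were called, against 2.75% of 53286 regions. At the WT region of Esrrb (chr12:86417851-86425200) it was 1.72 and 1.20 in WT clones and 1.52 and 1.27 in DKO clones, and at that of Prdm14 (chr1:13123801-13127850) 1.49 and 0.84, and 1.03 and 0.66. At these regions the genotypes overlapped at both genes, with differences of -0.07 (SE 0.41, adjusted p = 0.971) and -0.32 (SE 0.41, adjusted p = 0.783). At the H3K4me3 regions 0 of 10 were called, against 1.27%. The genotypes did not overlap, with DKO clones lower, at 4 of the 10, against 13.6% of all regions (34.2% in either direction). These were Klf4, Nanog (-1.78 and -1.44 in WT clones, -2.63 and -1.99 in DKO clones), Klf5 (-1.69 and -1.50, and -2.42 and -2.05) and Esrrb, whose narrower region there had 2.41 and 2.01 in WT clones and 1.85 and 1.79 in DKO clones (-0.39, SE 0.44, adjusted p = 0.989, limma). All 10 differences there were below 0, from -1.25 at Klf4 to -0.06 at Sox2, with a median of -0.38, beside 0.05 over all regions. Most of these values lie under IgG–IgG and rest on few reads.

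**Figure D4:**
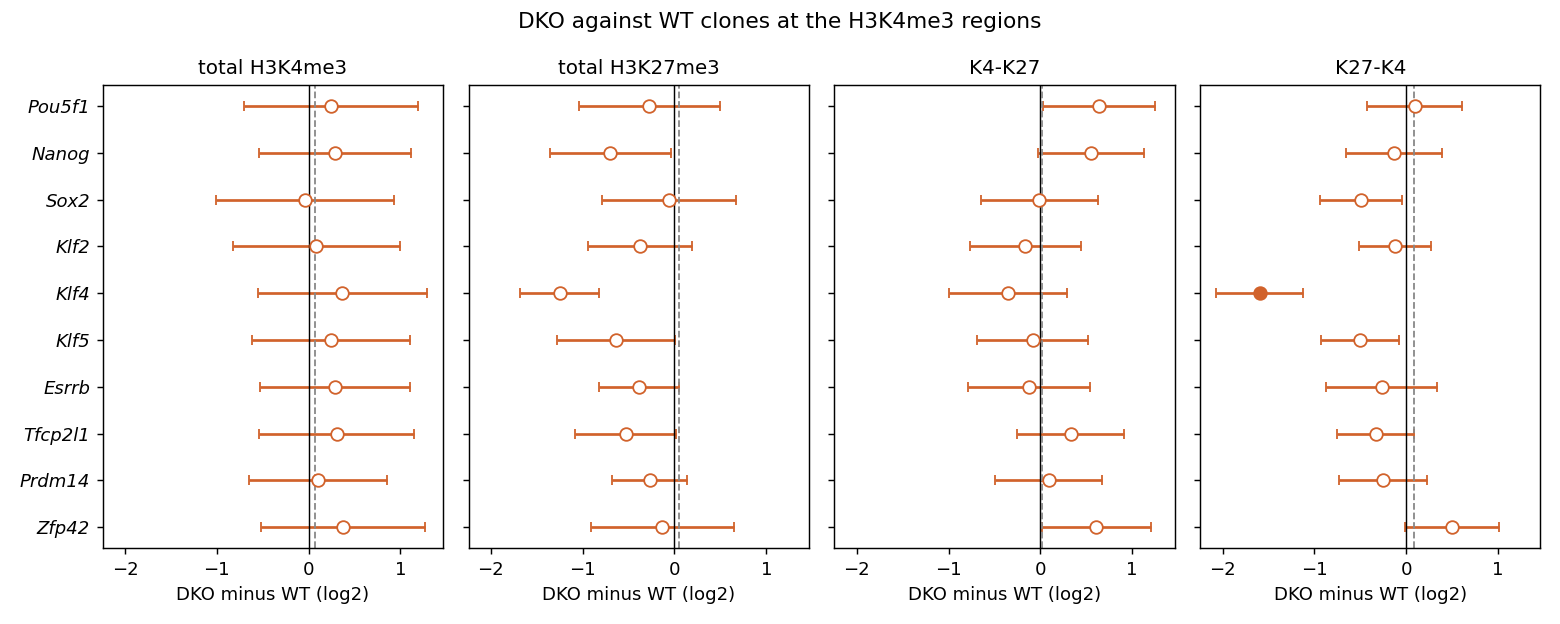
DKO minus WT (log2) at the E14 H3K4me3 region of each gene for the 2 in-line totals and the 2 reChIPs. Points are differences of the means of 2 clones each with SE bars, filled where called, and the dashed line is the median over all regions: only K27-K4 at Klf4 (-1.60) is filled.

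A list of 28 other genes of the pluripotency network was read in the same way. In E14 cells, 26 of the 27 with an H3K4me3 region had called higher H3K4me3 than H3K27me3 (median 3.13), against 81.4% of all regions, and in WT clones 24 of 28 (median 4.15), against 65.4%. K27-K4 was called lower than K4-K27 at 19 of 27 in WT clones (median -2.23), against 37.4% of all regions, and at 23 of 27 in DKO clones (median -2.35), against 46.5%. These medians lie near those of the 10 genes. Between DKO and WT clones, 0 of the 28 were called in H3K4me3 (median 0.15), against 2.72%, and in K4-K27 (median 0.01), against 1.19%, and 0 of the 11 with a region in K27-K4, against 2.26%. Of the 4 with an H3K27me3 region, 1 was called lower, against 2.75% of all regions in either direction, Tbx3, a T-box factor of the naive network (-1.71, SE 0.41, adjusted p = 0.00627). At the E14 H3K4me3 regions Tbx3 was also called lower in H3K27me3 (-1.75) and in K27-K4 (-1.42, adjusted p = 0.0153, limma), as 1 of 27 in each, against 1.27% and 5.77% of all regions.

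Regulators of other lineages stood at the other end of the balance. Of the 9 with an H3K4me3 region in E14 cells, 1 had called higher H3K4me3 than H3K27me3 (median 0.45), against 81.4% of all regions, and of the 12 in WT clones none (median 0.27), against 65.4%. At 0 of 9 was K27-K4 called lower than K4-K27 in WT clones (median 0.30) or in DKO clones (median 0.32), against 37.4% and 46.5% of all regions. In these medians Esrrb and Prdm14, with balances of 0.30 and 1.23 in E14 cells and with orders of 0.26 and 0.35 in WT clones, lay nearer to the lineage regulators than to the median of the 10 genes, a comparison that was not tested. In its E14 balance Prdm14 lay nearer still to the median of the formative and primed factors (1.64, below). Between DKO and WT clones at the E14 H3K4me3 regions, none of the 9 lineage regulators was called in a reChIP, against 5.77% of all regions in K27-K4 and 2.62% in K4-K27. All 9 differences were below 0 in K27-K4 (median -0.56, beside 0.08 over all regions) and in K4-K27 (median -0.50, beside 0.02). Of 10 factors of the formative and primed states, 6 of 7 with a region had called higher H3K4me3 in E14 cells (median 1.64), against 81.4% of all regions, and 3 of 9 in WT clones (median 1.29), against 65.4%. Between the genotypes 0 of the 7 were called in either reChIP at the E14 H3K4me3 regions, against the same 5.77% and 2.62% of all regions. Their medians were -0.12 in K27-K4 and -0.16 in K4-K27. From the study's longer list of bivalent qPCR loci, 7 were taken. Of these, 1 was called lower in DKO clones in K4-K27 and in K27-K4, against 1.19% and 2.26% of all regions in either direction. The other 6 were not called, with medians over the 7 of -0.70 and -0.53, beside -0.01 and -0.15 over all regions. The locus called in both was Csf1, with a log2 difference of -3.32 in K4-K27 (adjusted p = 8.43e-05) and of -2.17 in K27-K4 (adjusted p = 0.00026).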

How the data were processed

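Processed values of 26 libraries were analysed, 9 of E14 cells and 17 of the clones. Following the submitters' processing notes, the authors trimmed reads with Trim Galore 0.6.6, aligned them to mm10 with BWA 0.7.13 and handled alignments with SAMtools 1.9 and Picard 2.6.0. The notes also name deepTools 3.5.0 and MACS2. The deposited values are log2 RPM per kb of region, made by the authors in SeqMonk, without IgG–IgG subtraction. Values step in whole reads (0 reads entered as 0.9), from which depth was recovered, and 100% of values came out whole. The study's methods describe EPIC2 peak calls in 100 bp bins, with IgG–IgG as control for the in-line totals and reChIPs. All 338442 deposited regions start and end on a 150 bp grid, and 26.3% of them on a 100 bp grid, and which calls the tables hold is not stated in the sources used here. In all, 240 columns of 12 tables were used, and 32 columns of per-sample values that match no sample were not used.

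The study tested read counts, and the design here took its contrasts and thresholds. Because the values are log2, limma 3.58.1 was used (lmFit, then eBayes with trend and robust), in R 4.3.3, with Benjamini-Hochberg adjustment over all regions of a fit. A call needed an absolute log2 difference over 1 and an adjusted p under 0.05. DKO and WT clones were compared over the regions of both tables, counting identical coordinates once. Only the 2 groups of a comparison entered its fit, which was first tested on simulated data. Comparisons at the E14 H3K4me3 regions were added after seeing the data, except the E14 balance of totals, as was the alternative without DKO regions that overlap WT regions. Tables used Python 3.11.15, numpy 2.4.6, pandas 2.3.3 and matplotlib 3.10.9.

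The named genes are the 10 genes, Dppa2 and Dppa4, at most 2 qPCR loci and genes of the comparator lists called in DKO against WT comparisons, up to 4 per list. Members and lists were chosen with earlier results of these data known. Fibroblast markers are reported in the closing section. Same-numbered E14 libraries share a sequencing batch, and libraries of a clone share the clone. Deviations of paired libraries from group means correlated at 0.19 for the E14 orders, -0.01 for the E14 totals and 0.04 for the WT totals, and fits without the block are reported. Alternatives covered scaling, the variance model, the threshold, the regions tested, each library left out (the lone library is then assumed to vary like the other group), the block, the start sites (GENCODE), the window and the overlap.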

Additional observations from a re-analysis of the deposited data

How the results depend on the processing

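The calls rest on 2 libraries per group, and H3K27me3 at most of the 10 genes rests on few reads. Of the values for whole comparisons, 144 stayed within the bounds set for them and 14 moved. For DKO against WT K27-K4, 0 genes were called, but 1 (Klf4) without the lowest quartile of regions (3.51% of regions) and 1 with regions of the WT table only (4.56%), and 0 to 1 with a library left out. At the E14 H3K4me3 regions this count ranged from 0 to 1. With a library left out, the WT balance of totals had 3 to 8 genes called and the WT order 3 to 7. Centring left 5 genes called in the DKO order (8 as reported), against 44.1% of all regions, and 5 in the E14 balance (9 as reported), against 36.2%. A window of 5 kb listed 2 genes in the DKO H3K27me3 table.

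With the replicate as a block, pairing E14 libraries of 1 batch, 2 genes were called in the E14 order and 4 at the H3K4me3 regions, with 1523 and 3258 regions in place of 0 and 0. No other count of called genes changed with the block.

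Directions that turned were K4-K27 at Sox2 with regions of the DKO table only (0.042), and after centring the DKO order at Klf4 (0.18), the E14 balance at Esrrb (-1.99) and Prdm14 (-1.07), the E14 order at Esrrb (-0.14), the WT balance at Prdm14 (-1.84), and the WT order at Klf4 (1.37) and Tfcp2l1 (0.15).

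With a library left out, these differences crossed 0, and none of them was called as reported. DKO against WT H3K4me3 ranged from -0.37 to 0.92 at Pou5f1, -0.33 to 0.87 at Nanog, -0.67 to 0.66 at Sox2, -0.62 to 0.79 at Klf2, -0.33 to 1.05 at Klf4, -0.33 to 0.82 at Klf5, -0.086 to 0.65 at Esrrb, -0.39 to 0.93 at Tfcp2l1, -0.45 to 0.74 at Prdm14 and -0.29 to 1.11 at Zfp42. H3K27me3 ranged from -0.33 to 0.20 at Esrrb and -0.64 to 0.0029 at Prdm14, and K27-K4 from -0.60 to 0.12 and -0.50 to 0.033. K4-K27 ranged from -0.42 to 0.30 at Sox2, -0.47 to 0.26 at Klf2, -0.38 to 0.19 at Klf5, -0.60 to 0.36 at Esrrb, -0.29 to 0.83 at Tfcp2l1 and -0.42 to 0.71 at Prdm14. The DKO order ranged from -0.39 to 0.62 at Esrrb and -0.42 to 0.43 at Prdm14, the E14 order from -0.12 to 1.19 at Esrrb and -0.064 to 2.44 at Tfcp2l1, the WT balance from -0.58 to 0.16 at Esrrb, and the WT order from -0.14 to 0.66 at Esrrb and -0.19 to 0.88 at Prdm14.

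Counts over all regions moved more. DKO against WT H3K27me3 had 1468 called regions, 0 after centring, 314 without the lowest quartile, 675 and 0 with the WT and DKO table only, 179 without overlapping DKO regions and 133 to 650 with a library left out. H3K4me3 had 1745, 3899 after centring, 336 without the lowest quartile, 829 and 137 with the WT and DKO table only and 74 to 6018 with a library left out. K27-K4 had 1341, 671 without overlapping DKO regions, 85 with the DKO table and 482 to 8630 with a library left out, and K4-K27 had 643, 7715 with plain eBayes, 55 with the DKO table and 243 to 558 with a library left out. At the E14 H3K4me3 regions, leaving out a library gave 21 to 753 for H3K27me3 (280 as reported), 8 to 1740 for H3K4me3 (457, and 1364 after centring), 472 to 2629 for K27-K4 (1267) and 197 to 460 for K4-K27 (575), and the E14 order had 88 after centring. The E14 balance had 17878 higher and 1 lower, and 2565 and 5388 after centring. The WT order had 126 higher and 8224 lower, and 5876 and 2204 after centring, and the DKO order 248 and 10226, and 7415 and 2266. The WT balance had 20886 higher and 0 lower, 8005 and 9305 after centring and 12528 in all without the lowest quartile. With a library left out, these were 8277 to 26399 for the WT balance, 4439 to 9555 for the WT order and 6596 to 11517 for the DKO order. The cause of these moves was not tested.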

Other observations

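Of 5 fibroblast markers (Col1a1, Col1a2, Thy1, Twist2 and Prrx1), Twist2, a mesenchymal transcription factor, was called lower in DKO than in WT clones in total H3K4me3 (-2.65), K4-K27 (-4.48) and K27-K4 (-4.09, adjusted p = 2.62e-11, limma), against 2.72%, 1.19% and 2.26% of all regions in either direction. The other 4 were not called there, and of the 5 differences 2 were above 0 and 3 below in each of these ChIPs, reaching 0.20, 0.77 and 0.53. In H3K27me3 3 of the 5 had a region and none was called, against 2.75% of all regions. At the E14 H3K4me3 regions, which 4 of the 5 have, Twist2 was called lower in all 4 ChIPs, total H3K27me3 among them (-2.90, adjusted p = 1.24e-08, limma, against 1.27% of regions), and the other 3 were not called. The shares of regions called there were 2.08% in total H3K4me3, 2.62% in K4-K27 and 5.77% in K27-K4.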
